A study of Mus musculus with 10 samples.

Results

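The genes described are the 78 autosomal protein-coding genes of the mouse whose symbol starts with Mrpl or Mrps, of 21883 protein-coding genes in the RefSeq gene table. By symbol, 49 are assigned to the large subunit of the mitochondrial ribosome (Mrpl) and 29 to the small subunit (Mrps). They were picked by symbol and not by a measured value, but with earlier results of these data known. They lie on 17 chromosomes. The symbol is not a perfect guide to place: the Mrps18a and Mrps30 proteins sit in the large subunit of the mammalian mitoribosome, and Mrps36 is now regarded as a component of the α-ketoglutarate dehydrogenase complex.

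The mitochondrial ribosome translates the few messenger RNAs encoded by mitochondrial DNA, all of which specify membrane subunits of the respiratory chain and the ATP synthase. Its RNAs come from mitochondrial DNA, but every one of its proteins is encoded in the nucleus, made in the cytosol and imported. Some of these proteins have counterparts in the bacterial ribosome and others arose in the mitochondrial lineage. Their genes are scattered, short, active in most cells, and often start close to another gene.

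IKZF2, also named Helios, belongs to the Ikaros family of zinc-finger proteins, which bind DNA around a short GGGAA core and recruit chromatin remodelling complexes. It was profiled in RN2 cells, a mouse acute myeloid leukaemia line of C57BL/6 origin that carries the MLL-AF9 fusion and NRAS G12D. All cells had been given murine IKZF2 together with RFP by retrovirus, sorted, and grown for 2 weeks, so the level of IKZF2 was raised in every sample. The assay was CUT&RUN, in which an antibody bound to the protein of interest draws in a fusion of protein A and micrococcal nuclease, which cuts the DNA nearby and frees short fragments for sequencing. The 6 samples used are the anti-IKZF2 ones, 2 technical replicates for each of 3 libraries. No control-antibody sample (4 in the labels) was analysed here, no value is set against a control, and no group of cells without the added IKZF2 is compared.

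For every sample the deposited data give read counts over the same 151133 regions in mm10, with a median width of 109 bp. Technical replicate 1 was shallow, at 273896 to 326440 reads in regions, and technical replicate 2 was deeper, at 1296355 to 1755015. After the technical replicates had been summed, libraries 1, 2 and 3 held 1675237, 1570251 and 2081455 reads. The value of a region was its CPM, the count relative to all reads of the library that fell in regions, divided by its width in kb, and the value of a gene was that of the highest region within 5 kb of either gene end. Errors are SDs over the 3 libraries. The labels do not tie the libraries to separate cultures, and this spread may be technical.

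The promoter sequences that the results turn on come first, each 300 bases long, from 250 bases before the start to 50 after it (RefSeq, GRCm38.p6, whose coordinates are those of mm10). The first pair, Mrps7 and Mrpl43, are the highest genes of the small and the large subunit. The following 4 are high genes whose strongest region lies over the promoter itself, and the last pair have their whole promoter under a wide region. These last 6 were picked after their values were seen. Capitals mark the bases under the strongest deposited region that overlaps the promoter, in the direction of the gene. In Mrpl43, Mrpl34 and Mrpl17 that is not the region that gave the gene its value. Mrps7 has no capitals because no region covers its promoter. Whether region starts count from 0 or 1 is not given in the sources used here, so an edge of the capitals may be off by 1 base.

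Mrps7 (chr11:115603890-115604189, + strand): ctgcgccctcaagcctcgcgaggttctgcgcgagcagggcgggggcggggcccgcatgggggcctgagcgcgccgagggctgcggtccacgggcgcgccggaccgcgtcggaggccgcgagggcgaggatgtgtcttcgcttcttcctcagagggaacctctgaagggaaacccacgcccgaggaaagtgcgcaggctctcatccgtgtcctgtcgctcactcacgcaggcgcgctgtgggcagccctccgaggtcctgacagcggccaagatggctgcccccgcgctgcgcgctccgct
Mrpl43 (chr19:45006393-45006692, − strand): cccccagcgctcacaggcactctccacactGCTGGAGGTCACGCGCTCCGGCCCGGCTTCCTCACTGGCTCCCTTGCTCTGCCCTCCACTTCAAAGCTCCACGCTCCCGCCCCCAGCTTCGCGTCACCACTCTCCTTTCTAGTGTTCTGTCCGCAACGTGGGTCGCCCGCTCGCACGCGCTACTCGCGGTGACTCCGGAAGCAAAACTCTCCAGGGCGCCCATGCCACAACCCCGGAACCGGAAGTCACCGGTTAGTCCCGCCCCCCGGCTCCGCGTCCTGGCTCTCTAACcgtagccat
Mrpl36 (chr13:73330759-73331058, + strand): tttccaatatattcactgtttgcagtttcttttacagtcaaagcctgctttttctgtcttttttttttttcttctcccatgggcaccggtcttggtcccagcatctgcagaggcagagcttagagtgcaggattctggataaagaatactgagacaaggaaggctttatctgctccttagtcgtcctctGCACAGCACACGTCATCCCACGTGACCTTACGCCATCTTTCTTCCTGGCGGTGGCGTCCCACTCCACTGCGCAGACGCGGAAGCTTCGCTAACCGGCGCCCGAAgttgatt
Mrpl28 (chr17:26123253-26123552, + strand): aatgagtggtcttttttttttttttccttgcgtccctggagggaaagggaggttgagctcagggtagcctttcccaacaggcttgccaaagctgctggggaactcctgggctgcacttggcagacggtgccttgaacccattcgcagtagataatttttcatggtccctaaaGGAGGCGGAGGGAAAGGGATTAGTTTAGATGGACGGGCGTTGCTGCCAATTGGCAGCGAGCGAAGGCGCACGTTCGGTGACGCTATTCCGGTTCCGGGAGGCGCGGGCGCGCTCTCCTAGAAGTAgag
Mrpl52 (chr14:54426659-54426958, + strand): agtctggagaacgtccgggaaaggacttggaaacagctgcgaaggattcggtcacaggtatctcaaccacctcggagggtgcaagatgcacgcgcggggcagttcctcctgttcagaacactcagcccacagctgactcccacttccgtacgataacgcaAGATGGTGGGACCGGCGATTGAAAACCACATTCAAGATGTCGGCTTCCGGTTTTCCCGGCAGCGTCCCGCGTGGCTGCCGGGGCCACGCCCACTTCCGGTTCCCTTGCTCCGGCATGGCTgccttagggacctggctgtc
Mrps26 (chr2:130563507-130563806, + strand): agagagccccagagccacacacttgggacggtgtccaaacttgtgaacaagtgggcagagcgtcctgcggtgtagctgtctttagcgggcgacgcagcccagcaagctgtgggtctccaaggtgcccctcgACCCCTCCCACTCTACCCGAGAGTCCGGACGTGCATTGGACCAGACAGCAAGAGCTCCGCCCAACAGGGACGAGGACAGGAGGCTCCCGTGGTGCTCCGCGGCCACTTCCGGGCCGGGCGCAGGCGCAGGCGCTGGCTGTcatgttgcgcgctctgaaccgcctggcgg
Mrpl34 (chr8:71464676-71464975, + strand): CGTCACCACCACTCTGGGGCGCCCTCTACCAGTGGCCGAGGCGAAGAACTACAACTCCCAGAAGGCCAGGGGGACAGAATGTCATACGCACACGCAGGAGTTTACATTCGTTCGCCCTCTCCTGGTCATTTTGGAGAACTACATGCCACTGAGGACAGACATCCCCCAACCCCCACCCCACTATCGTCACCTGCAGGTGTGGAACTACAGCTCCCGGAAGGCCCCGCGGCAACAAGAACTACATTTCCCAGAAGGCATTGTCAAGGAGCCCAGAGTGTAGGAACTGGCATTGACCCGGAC
Mrpl17 (chr7:105811038-105811337, − strand): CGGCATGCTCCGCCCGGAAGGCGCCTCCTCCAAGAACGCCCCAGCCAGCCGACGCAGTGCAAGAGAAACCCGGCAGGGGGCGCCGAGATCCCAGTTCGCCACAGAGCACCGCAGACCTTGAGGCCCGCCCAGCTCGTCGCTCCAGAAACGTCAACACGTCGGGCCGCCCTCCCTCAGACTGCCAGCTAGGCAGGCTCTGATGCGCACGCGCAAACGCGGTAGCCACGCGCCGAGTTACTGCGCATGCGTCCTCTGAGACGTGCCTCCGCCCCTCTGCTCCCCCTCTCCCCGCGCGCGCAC

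In these sequences positions count from base 1 at the 5′ end, and the start of the gene is base 251. The Mrpl28 promoter holds GGGAA at bases 41, 98 and 182 and the reverse complement at base 71, and the match at base 182 lies under the region. In the Mrpl52 promoter the reverse complement begins at bases 213 and 260, both under the region, and GGGAA stands at base 17 outside it. The Mrpl34 promoter has the reverse complement at base 245. The promoters of Mrpl36, Mrpl43, Mrps26 and Mrpl17 hold the core on neither strand in these 300 bases. Mrps7 has GGGAA at bases 153 and 166, in a promoter that no region covers.

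Most mitochondrial ribosomal protein genes had a region near an end, but few were among the strongly marked genes. A region lay within 5 kb of an end of 70 of the 78 genes (89.7%), against 16130 of all 21883 genes (73.7%). The 8 genes without one were Mrpl3, Mrpl9, Mrpl13, Mrpl16, Mrpl47, Mrps17, Mrps22 and Mrps25. The top 10% of genes with a region, those at or above 101.8 CPM per kb, were 7.38% of all genes. They held 9 of the 78 genes (11.5%), a share near that background. Among genes with a region the shares were 12.9% and 10.0%.

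Across the 70 genes the median value was 68.5 CPM per kb, against 58.8 for all genes with a region, and 45 of the 70 lay above that all-gene median. The median percentile of these 70 among all genes with a region was 67.7. Ranked within libraries 1, 2 and 3 it was 58.8, 63.0 and 54.0, and without library 2 it was 53.5. Counting only regions over the promoter, it was 45.9. The median gene value thus lay above the middle of all genes in each library, by an amount that the choice of library and of regions changed.

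**Figure D1:**
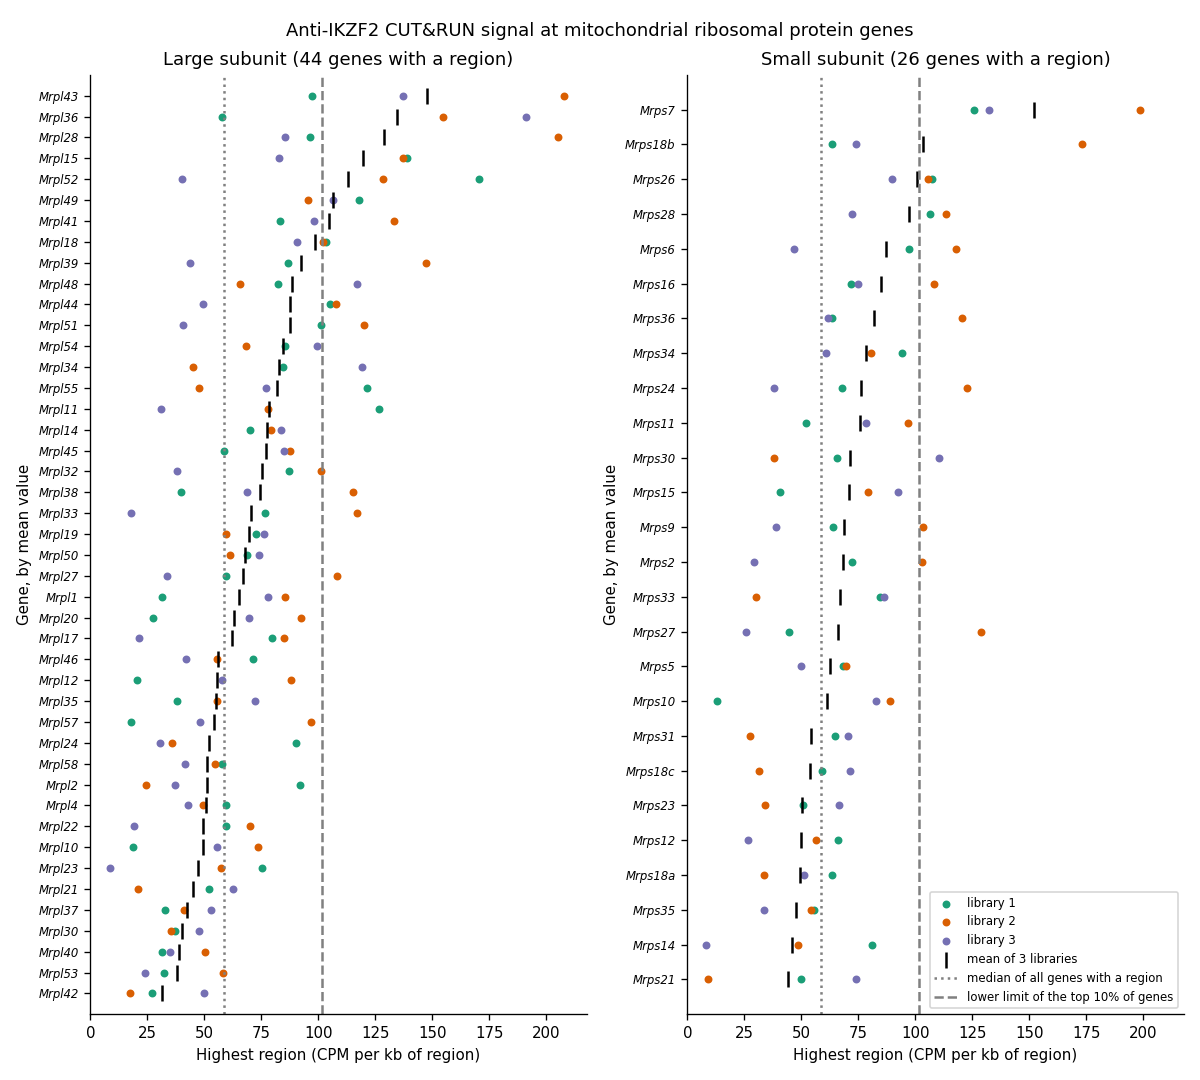
Highest region within 5 kb of either gene end (CPM per kb, horizontal axis) for each of the 44 large subunit and 26 small subunit genes with a region. Coloured points are the 3 libraries, black ticks their mean, the dotted line the median of all genes with a region (58.8) and the dashed line the lower limit of the top 10% (101.8). The 3 points of a gene are often far apart, and Mrps7 is the only gene with all 3 beyond the dashed line.

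The highest small subunit gene was Mrps7, whose protein is the counterpart of bacterial S7 in the head of the subunit. Its values were 126, 199 and 132 CPM per kb in libraries 1, 2 and 3 (152 ± 40.3, SD, n = 3), from 23, 34 and 30 reads. All 3 libraries were above the limit of the top 10%, and Mrps7 was the only one of the 78 genes in the top 10% of each library. Across all genes 1.38% were. The region (chr11:115612902-115613011) does not lie at the Mrps7 promoter printed above. It stands 4866 bp beyond the 3′ end of Mrps7 and overlaps an end of Mif4gd, which encodes a translation-related MIF4G domain protein. With each region given to the nearest gene, no mitochondrial ribosomal protein gene reached the top 10% of every library.

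Among large subunit genes Mrpl43, which has no bacterial counterpart, stood highest. It measured 97.5, 208 and 137 CPM per kb (148 ± 56.0, SD, n = 3), lowest in library 1 and highest in library 2. The 98 bp region lies inside the gene span but overlaps the start of Twnk, which encodes the mitochondrial DNA helicase Twinkle. The Twnk start lies within the Mrpl43 span, 649 bp from the 3′ end of Mrpl43 and 779 bp from its start. Over the Mrpl43 promoter itself another region, marked in capitals above, measured less, at 41.3, 73.5 and 62.8 CPM per kb. Mrps7 and Mrpl43 differed by far less than the SD of either.

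Mrpl36, the counterpart of the small bacterial protein L36, had its strongest region over its promoter. It measured 58.0, 155 and 191 CPM per kb (135 ± 68.9, SD, n = 3), from 10, 25 and 41 reads. Library 1 lay near the all-gene median and libraries 2 and 3 above the limit of the top 10%. The region (chr13:73330948-73331051) has its midpoint 2496 bp inside the Mrpl36 span, whose outermost start lies upstream of the printed promoter. Ndufs6, a complex I subunit gene, starts 21 bp from that outermost start, and it takes its value from the same region, which lies at the Mrpl36 promoter entry and not at its own start.

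Mrpl28 followed with 96.3, 205 and 85.2 CPM per kb (129 ± 66.4, SD, n = 3). Here library 2 alone was above the limit. The region (chr17:26123425-26123549) covers 125 of the printed promoter bases, including the start, and Pgap6 ends 249 bp away. Mrpl52 showed another order of libraries, at 171, 128 and 40.4 CPM per kb (113 ± 66.4, SD, n = 3) from 34, 24 and 10 reads. Libraries 1 and 2 were above the limit, which is that of the 3-library mean, and library 3 was below the median of all genes. Ranked within each library, Mrpl52 was in the top 10% of 1 of the 3. Its region (chr14:54426819-54426938) also lies over the start, and Mmp14, a matrix metalloproteinase gene, takes the same value.

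Mrpl15, the counterpart of bacterial L15, measured 139, 137 and 82.8 CPM per kb (120 ± 31.9, SD, n = 3), at a region that overlaps an end of the gene and gives no other gene its value. It had no entry in the promoter table, so which end this is was not determined. The remaining large subunit genes in the top 10% lay close to its limit. Mrpl49 measured 118, 95.3 and 106 CPM per kb (107 ± 11.3, SD, n = 3) at a region over an end of Znhit2, 3332 bp from its own. Mrpl41 measured 83.2, 133 and 98.0 CPM per kb (105 ± 25.6, SD, n = 3) at a region over an end of Pnpla7. The spread of Mrpl41 reached across the limit.

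Of the 9 genes in the top 10%, 5 took their value from a region nearer to an end of another gene than to their own, and 3 had one that overlapped their own end. Mrps18b was the other small subunit gene in the group. It encodes a protein related to bacterial S18 and measured 63.6, 173 and 73.9 CPM per kb (104 ± 60.6, SD, n = 3), with library 2 alone above the limit. That region overlaps an end of Atat1, which encodes an α-tubulin acetyltransferase. A second region reaches the Mrps18b promoter and measured 97.0 CPM per kb, from 13, 47 and 36 reads, and it gives the value of Ppp1r10, whose start lies 72 bp away.

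Several genes lay just below the limit. Mrps26, a small subunit gene with no bacterial counterpart, measured 107, 105 and 89.9 CPM per kb (101 ± 9.58, SD, n = 3) at its own start, at a region that gives no other gene its value. Mrpl18 measured 103, 102 and 90.9 CPM per kb (98.7 ± 6.86, SD, n = 3), from 163 reads in all, at a 312 bp region that also covers an end of Tcp1, a chaperonin subunit gene. Mrps28 measured 97.5 ± 22.3 CPM per kb and Mrpl39 92.6 ± 51.9 (SD, n = 3 for each). In all, 30 of the 70 genes lay within 1 SD of the limit on either side, including 8 of the 9 in the top 10%. Mrps7 alone exceeded it by more than its SD, so the order of the others around the limit is not resolved.

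The 10 highest large subunit genes ended with Mrpl48 at 88.5 ± 26.2 CPM per kb (SD, n = 3). Those of the small subunit went on with Mrps6 at 87.3 ± 36.4, Mrps16 at 85.1 ± 20.2, Mrps36 at 81.9 ± 33.5, Mrps34 at 78.5 ± 16.9, Mrps24 at 76.3 ± 43.1 and Mrps11 at 75.7 ± 22.6 (SD, n = 3 for each). Mrpl48 had the most reads of any value region, 52, 39 and 92 in the 3 libraries, in a 377 bp region over an end of Rab6a, a Golgi trafficking GTPase gene whose start lies 726 bp from that of Mrpl48. The lowest genes with a region were Mrpl42 at 31.4 CPM per kb in the large subunit and Mrps21 at 44.3 in the small subunit. Value regions of the 70 genes held 23 to 183 reads over the 3 libraries, with a median of 43.

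The library with the highest value differed from gene to gene. Of the 70 genes, library 2 gave the highest value for 33, library 3 for 19 and library 1 for 18, and 32 were lowest in library 3. Among all genes 41.7% were highest in library 2, 30.8% in library 1 and 27.5% in library 3. The median ratio of SD to mean was 0.433 for the 70 genes and 0.427 for all genes. The top 10% was also taken within each library. Counting libraries, 55 of the 70 genes were in the top 10% of none, 10 of 1, 4 of 2 and 1 of all 3. Of all 16130 genes with a region, 12599 were in the top 10% of none, a similar share, and 301 of all 3.

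Spearman's rho between libraries over the 70 values was 0.316 for libraries 1 and 2, 0.126 for 1 and 3, and 0.139 for 2 and 3. Over the 31 regions at promoters of these genes it was 0.251, -0.208 and 0.0641, against 0.286, 0.261 and 0.266 over 4299 promoter regions of all genes. These are descriptions, and all points of a library share its depth. Genes are not independent replicates.

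The large and small subunit differed little. In the large subunit 44 of 49 genes (89.8%) and in the small subunit 26 of 29 (89.7%) had a region. The median value was 68.7 CPM per kb in the large and 68.5 in the small subunit, at median percentiles of 68.0 and 67.7. Ranked within libraries 1, 2 and 3 the large subunit stood at 62.9, 61.9 and 44.1 and the small subunit at 55.1, 66.9 and 63.1. The order of the subunits thus changed between libraries. In the top 10% were 7 of 49 large (14.3%) and 2 of 29 small subunit genes (6.90%), against 7.38% of all genes.

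Genes whose protein has a bacterial counterpart (46) had a median percentile of 66.5, with 4 in the top 10% (8.70%). Those without one (32) had 72.7, with 5 (15.6%), and over all genes the share was 7.38%. Ranked within libraries 1, 2 and 3 the medians were 59.99, 64.86 and 52.55 with a counterpart. Without one they were 55.12, 57.74 and 53.96, so the order turned round in libraries 1 and 2. Of the Mrps18 family the list of counterparts holds Mrps18c alone. The 3 genes of this family, all related to bacterial S18, were spread out: Mrps18b at 104 CPM per kb, Mrps18c at 54.0 and Mrps18a at 49.4. Mrps30, whose protein like that of Mrps18a sits in the large subunit, measured 71.5. In Mrps18c libraries 1, 2 and 3 read 59.1, 31.5 and 71.4 CPM per kb, so it overlapped the range of Mrps18b only at its upper end.

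**Figure D2:**
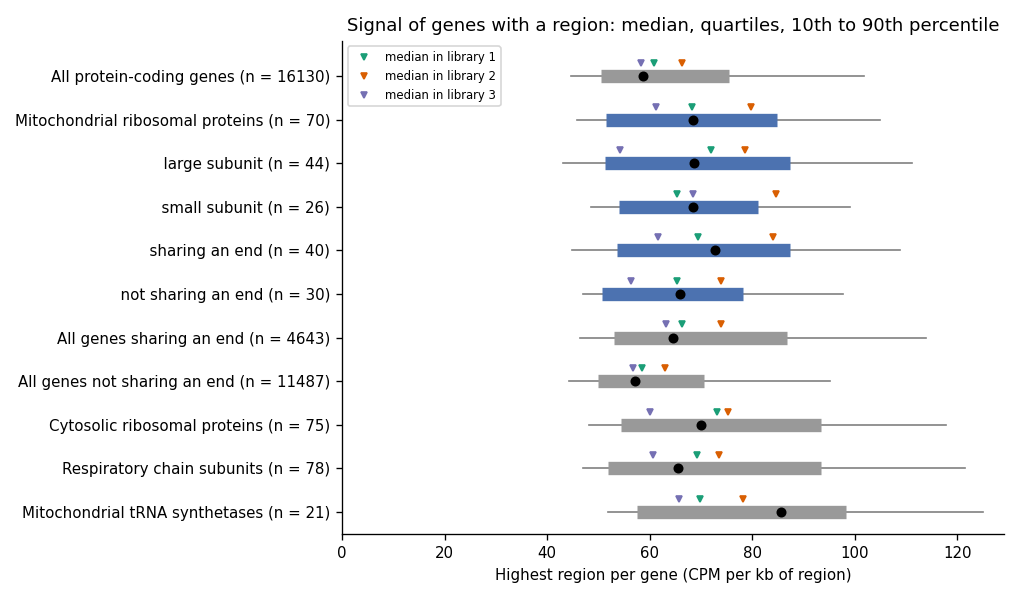
Highest region per gene (CPM per kb) for genes with a region, as median (black point), quartiles (thick bar) and 10th to 90th percentile (thin line), with triangles for the median within each library. The medians of the mitochondrial ribosomal protein genes (68.5), of all genes that share an end (64.7) and of the cytosolic ribosomal protein genes (70.0) lie close together, and all bars overlap widely.

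Close neighbours were frequent among these genes. An end of another protein-coding gene lay within 1 kb of an end of 44 of the 78 genes (56.4%), against 24.8% of all genes. They were also short, with a median span of 7690 bp against 17170 bp. Of the 44 with a shared end, 7 (15.9%) were in the top 10% and the median percentile was 72.3. Of the 34 others 2 (5.88%) were, at a median percentile of 64.0. Over all genes 12.9% with a shared end and 5.55% without were in the top 10%, so a split of this kind was general. The all-gene median percentiles were 62.3 with a shared end and 45.8 without. With each region given to the nearest gene, this order turned round: the 30 genes with a shared end that still had a region stood at 48.0 and the 28 others at 68.4. Which gene such a region belongs to cannot be told apart in these data.

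Of the 70 genes, 35 (50%) took their value from a region that also gave another gene its value, against 28.15% of all genes with a region. For 25 of the 70, whether or not the value was shared, the region lay nearer to an end of some other gene than to their own. The same held for 2880 of all 16130 genes with a region. The start of another gene lay within 1 kb of that of 28 genes, 27 of which had a region and 6 of which were in the top 10%. For 24 of them this pair of starts was the closest pair of ends, and in Mrps7, Mrpl43, Mrpl49 and Mrpl41 another pair lay nearer. Of these 24, 2 (8.33%) were in the top 10%, against 13.2% of all genes with such a neighbour. For the wider count of 28, no share over all genes was computed. Some of these partners also act in mitochondria: Ndufs6 beside Mrpl36, the seryl-tRNA synthetase gene Sars2 at 136 bp from Mrps12, and the complex I gene Ndufb5 at 302 bp from Mrpl47. Mrps12, the counterpart of the decoding protein S12, and Sars2 shared a region at 49.9 CPM per kb, while neither Mrpl47 nor Ndufb5 had one.

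In 1 case both partners were mitochondrial ribosomal protein genes. The starts of Mrps11 and Mrpl46 are 42 bp apart on chromosome 7. No region covered either promoter, and the genes took their values from different regions, 2505 bp and 1434 bp from their own ends. Mrps11 measured 75.7 ± 22.6 CPM per kb and Mrpl46 56.2 ± 14.8 (SD, n = 3 for each). Their difference was smaller than the SD of Mrps11 and larger than that of Mrpl46.

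Over the promoters themselves, regions were frequent but not strong. A region overlapped the 300 bases around the start in 31 of the 69 genes with an entry in the promoter table (44.9%), against 4299 of 17491 promoters of all genes (24.6%). The shares were 19 of 43 in the large and 12 of 26 in the small subunit. Their median value was 68.8 CPM per kb, slightly below the 71.7 of all promoters with a region. Promoters of all genes whose nearest neighbouring end was start to start had a region in 43.0%, those of cytosolic ribosomal proteins in 51.4% and those of respiratory chain subunits in 55.7%. The frequency at mitochondrial ribosomal protein genes was thus of the order seen in these other groups.

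**Figure D3:**
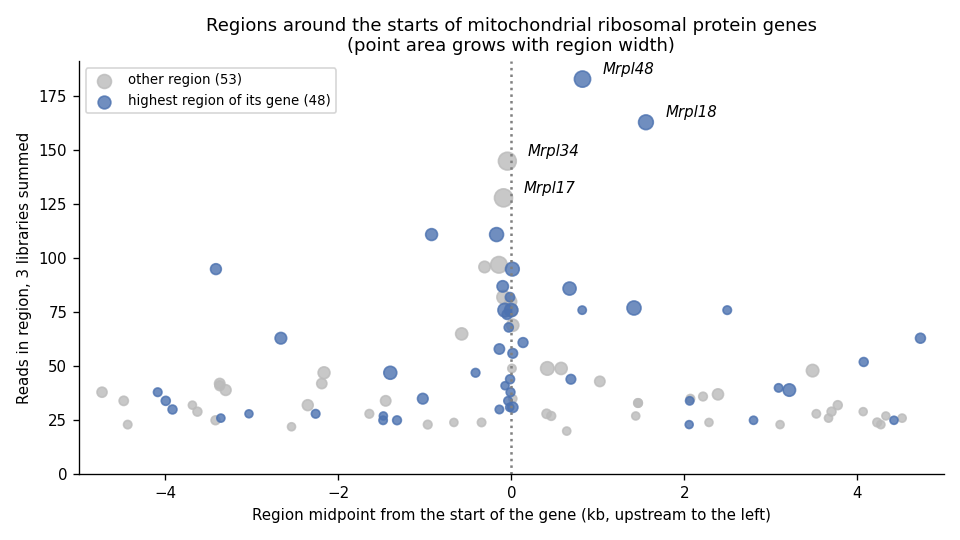
Each point is a region within 5 kb of the start of a mitochondrial ribosomal protein gene of known strand, by the distance of its midpoint from the start (kb, horizontal) and the reads it held over the 3 libraries (vertical), with point area growing with width. Of the 101 regions drawn, 33 have their midpoint within 500 bp of the start, and the wide, read-rich regions of Mrpl34 and Mrpl17 stand there although narrower regions gave these genes their value.

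Division by width favours narrow regions, and the deepest promoter regions of these genes were wide. The region over the Mrpl34 promoter (chr8:71464651-71465108, 457 bp) held 44, 42 and 59 reads. Its values of 57.5, 58.5 and 62.0 CPM per kb lay close together, below the 82.9 ± 37.0 (SD, n = 3) of the 113 bp region that gave Mrpl34 its value. By CPM with no division it ranked at percentile 99.7 of all 151133 regions. Abhd8 starts 219 bp from Mrpl34.

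Over the Mrpl17 promoter lay a region (chr7:105810944-105811412, 468 bp) of 46, 33 and 49 reads, at 58.7, 44.9 and 50.3 CPM per kb and percentile 99.5 by CPM. Mrpl17 encodes the counterpart of bacterial L17 and has no neighbour within 1 kb. The region over the start of Mrpl12, whose protein forms the ribosomal stalk, held 42, 17 and 38 reads over 394 bp. A region of 200 bp or wider lay near 28 of the 78 genes (35.9%), against 20.7% of all genes. On such regions alone the median percentile of the 28 genes was 54.7, and 2 of them were in the top 10%.

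The promoters of these genes held an ETS match more often than the promoters of all genes, and the Ikaros core at a similar share. On either strand GGGAA was found in 39 of 69 promoters (56.5%), against 62.6% of 17491 promoters of the same length. CGGAAG, an ETS family motif, was found in 38 (55.1%), against 21.5%. GCATGCGC, the motif of the mitochondrial biogenesis factor NRF1, was in 8 (11.6%) against 3.60%, and ATGGCGG, the motif of YY1, in 13 (18.8%) against 5.41%. GGGCGG, bound by Sp and KLF factors, was in 34 (49.3%) against 46.3%. CCAAT, bound by NF-Y, was in 27 (39.1%) against 39.0%. TGACGTCA, bound by CREB, was in 2 (2.90%) against 2.34%. None of these motifs contains another, though neighbouring matches can overlap by a few bases. The ETS motif was also frequent in promoters of cytosolic ribosomal proteins (44 of 70, 62.9%) and of respiratory chain subunits (28 of 70, 40%). NRF1 matches were in 2 and 10 of these 70, and YY1 matches in 10 and 9. Median GC content was 58.3% in the 69 promoters and 56.3% in all.

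The signal of genes with and without a motif was then set side by side. The 34 genes with a region and the Ikaros core had a median percentile of 66.5 and the 28 without the core 65.9. For the ETS motif the figures were 63.6 with it (32 genes) and 73.0 without it (30 genes), whereas over all genes they were 62.5 and 46.9. Of the 8 top 10% genes with a promoter entry, 3 had the core and 4 the ETS motif. Under the regions themselves, whose overlap with the promoter had a median of 125 bases, the core lay in 13 of 31 promoters (41.9%) against 39.0% of all promoters with a region. The ETS motif lay there in 17 of 31 (54.8%) against 29.6%. A match is a description of letters and not a binding site.

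**Figure D4:**
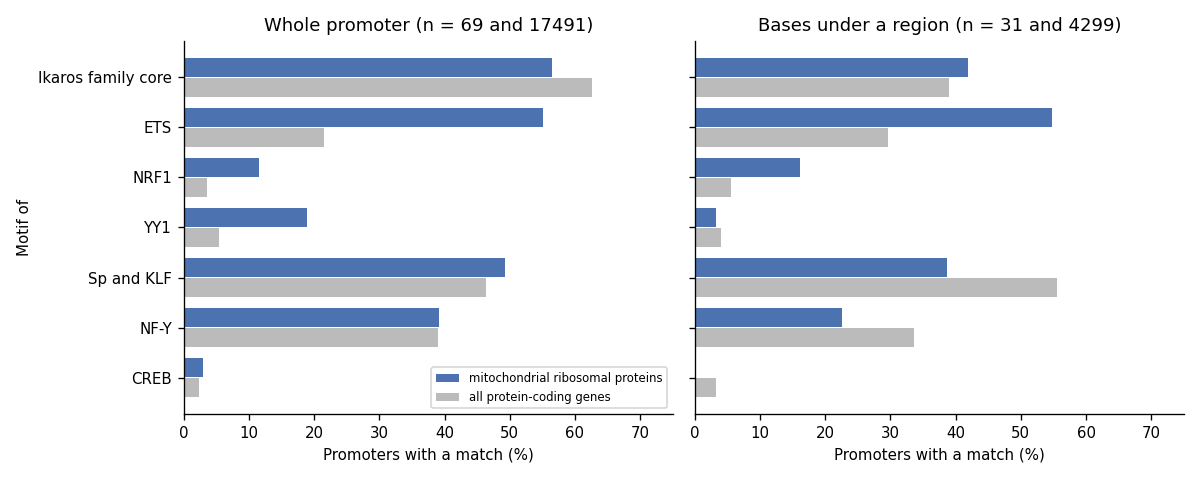
Percentage of promoters with a match to each of 7 motifs on either strand, for mitochondrial ribosomal protein genes (blue) and all protein-coding genes (grey). Left, the whole 300 base promoter. Right, the bases under a deposited region in promoters that have one. The bars for the Ikaros core are of similar length in both panels, while those for ETS are 55.1% against 21.5% on the left and 54.8% against 29.6% on the right.

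Between technical replicates, in an edgeR quasi-likelihood fit blocked on the library, 71 of 27452 regions passed (0.259%), among them 0 of the 61 tested regions near mitochondrial ribosomal protein genes. Over all 27452 tested regions, 1884 had an unadjusted p under 0.05 by edgeR and 1389 by DESeq2. Of the 61, 7 had one by edgeR, and DESeq2 called 0 with 2 under that level. The lowest p among them was that of the Mrpl17 promoter region, which held 6, 0 and 4 reads in the shallow and 40, 33 and 45 in the deeper replicates (log2 difference 2.01 ± 0.65, SE; edgeR adjusted p = 0.214). The Mrps7 region was 1.72 ± 0.80 higher in technical replicate 2 on the log2 scale (SE; adjusted p by edgeR 0.611), with 2, 0 and 6 reads against 21, 34 and 24.

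The libraries were compared in an edgeR fit that also held a term for the technical replicate, which called 4 of 27452 regions (0.0146%) and 0 of the 61. Over all tested regions, 1193 had an unadjusted p under 0.05 in edgeR and 1562 in DESeq2. Of the 61 there were 3 in edgeR and 2 in DESeq2, which also called 0 of the 61 after adjustment. The lowest p was at a region near Mrps33 with 19, 27 and 1 reads in libraries 1, 2 and 3 (edgeR adjusted p = 1). The region over the Mrpl57 start held 8, 41 and 27 reads and that before Mrpl11, which encodes the stalk base protein, held 59, 34 and 18. At these depths differences of this size between libraries did not pass.

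Other genes of mitochondrial translation, from lists drawn up with earlier results of these data known, give the setting. Of 15 translation factor genes 5 were in the top 10% (33.3%), against 7.38% of all genes. Their median value was 74.2 CPM per kb, and the highest was Taco1, a translational activator of cytochrome c oxidase subunit I, at 462. Among 22 mitochondrial aminoacyl-tRNA synthetase and amidotransferase genes 4 were in the top 10% (18.2%). Their median was 85.6, with Rars2 highest at 171.5 CPM per kb. Among 21 assembly factor genes 3 were in the top 10% (14.3%), with a median of 59.4 and the rRNA methyltransferase gene Tfb1m highest at 148. None of the 4 mitochondrial transcription genes was, at a median of 83.1 with Tfb2m highest at 86.5. None of 5 mitoribosome proteins with other symbols (Dap3, Ptcd3, Chchd1, Aurkaip1 and Gadd45gip1) was, and the highest, Ptcd3, measured 62.6 CPM per kb.

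Cytosolic ribosomal protein genes had 13 of 91 in the top 10% (14.3%), against 7.38% of all genes. Their median was 70.0 CPM per kb, and Rps9 was highest at 163. Nuclear genes of respiratory chain subunits had 15 of 88 (17.05%) with a median of 65.5, and Sdhc was highest at 371. Against the 9 of 78 of the mitochondrial ribosomal protein genes, with a median of 68.5, these differences were not tested.

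**Figure D5:**
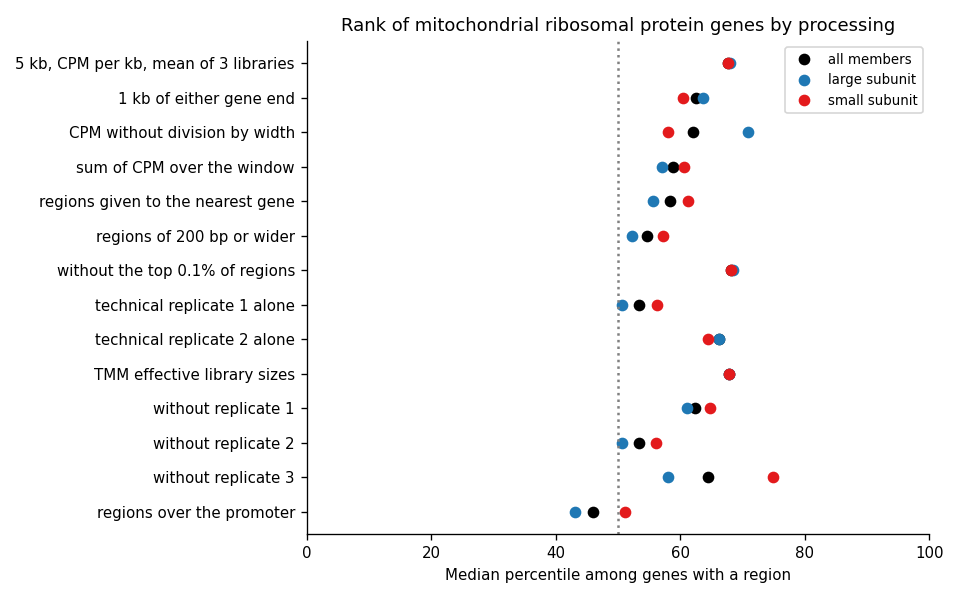
Median percentile of the mitochondrial ribosomal protein genes among all genes with a region (horizontal axis, 0 to 100), for all of them and each subunit, under the reported way of valuing genes (top row) and 13 others. The dotted line marks the middle of all genes. The point for all of them moves from 67.7 in the top row to 53.5 without library 2 and 45.9 on promoter regions, and the subunits change order between rows.

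How far each gene depended on the way genes were valued is shown by the count of settings that kept it in the top 10%. Of 13 other settings, Mrpl28 stayed in 9, Mrpl15, Mrpl36, Mrpl43 and Mrpl52 in 8, Mrpl41, Mrps18b and Mrps7 in 6, and Mrpl49 in 4. These counts do not share a base, because not every gene had a region in each setting. Mrpl28, Mrpl43 and Mrpl52 had one in 13, Mrpl36 and Mrps18b in 12, Mrpl15 and Mrpl41 in 11, and Mrps7 and Mrpl49 in 9. The number of the 78 genes in the top 10% was 4 within 1 kb of an end, where 4.24% of all genes were in it, and 2 on regions of 200 bp or wider, where 2.08% were. Without library 1, 2 or 3 it was 7, 11 or 9. With technical replicate 1 alone and with technical replicate 2 alone it was 9.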

How the data were processed

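The authors deposited raw read counts for each sample over a common set of regions, with no normalization, per the file headers. The submitters' processing notes name Bowtie2 2.3.3.1, MACS2 and mm10, and the settings of both tools were not given in the sources used. Samples were grouped by title: 6 anti-IKZF2 samples (3 libraries of 2 technical replicates) were used and 4 control-antibody samples were not analysed here. Technical replicates were summed. Even numbers made up 84.7 to 87.4% of counts from 10 upwards in the shallow replicates and 58.0 to 61.2% in the deeper ones, and reads without molecular identifiers are not independent molecules.

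Genes came from the RefSeq table of GRCm38.p6, and 69 of the 78 members matched a promoter entry (the first listed where a gene has several, as Mrpl48 does). Genes named are those in the top 10%, the 10 highest and the lowest of each subunit, those without a region, the Mrps18 family with Mrps30, and each list's highest gene. Others, such as Mrpl11, Mrpl12, Mrpl17, Mrpl24, Mrpl34, Mrpl46, Mrpl57, Mrps12 and Mrps33, were named after their values were seen. The members and lists were chosen with earlier results of these data known. The tests of regions used edgeR 4.0.16 (in R 4.3.3, with filterByExpr, TMM, glmQLFit, glmQLFTest, Benjamini-Hochberg over all tested regions), with DESeq2 1.42.0 as an alternative. The fit was also run on simulated data, with large changes planted only in regions of many reads. It does not show what the fit would find at value regions of the members, with their median of 43 reads. The library is the block because the labels make both technical replicates part of 1 CUT&RUN library, and their deviations correlated at 0.23 to 0.25. Other steps used Python 3.11.15, pandas 2.3.3 and scipy 1.17.1. The alternatives were the window, width scaling, sum over the window, nearest gene, wide regions, single technical replicates, library scaling, the filter on low counts and leaving out each library.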

Additional observations from a re-analysis of the deposited data

How the results depend on the processing

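The number of genes with a region was 28 on regions of 200 bp or wider and 31 on promoter regions, an alternative chosen after seeing the data. In the top 10% were 4 genes within 1 kb, 2 on wide regions and 2 on promoter regions. In the top 10% of all 3 libraries (1 gene, Mrps7) were 0 within 1 kb, with the nearest gene, on wide regions, in technical replicate 1 and on promoters, 3 by CPM and 2 in technical replicate 2. Without a library, 2 to 3 were in the top 10% of both remaining ones.

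The median percentile of all members (67.7) was 62.48 within 1 kb, 61.97 by CPM, 58.76 by sum, 58.39 with the nearest gene, 54.7 on wide regions, 53.3 in technical replicate 1, 45.93 on promoters and 53.45 to 64.53 without a library. The large subunit (68.0) stood at 57.11 by sum, 55.63 with the nearest gene, 52.25 on wide regions, 50.69 in technical replicate 1, 43.15 on promoters and 50.6 to 61.13 without a library. The small subunit (67.7) stood at 60.41 within 1 kb, 58.02 by CPM, 60.58 by sum, 61.25 with the nearest gene, 57.15 on wide regions, 56.28 in technical replicate 1, 51.08 on promoters and 56.12 to 74.82 without a library. Genes sharing an end (72.3) stood at 63.69 within 1 kb, 65.75 by CPM, 63.74 by sum, 47.95 with the nearest gene, 50.14 on wide regions, 58.78 in technical replicate 1, 43.15 on promoters and 56.12 to 67.94 without a library. The others (64.0) stood at 68.37 with the nearest gene, 50.78 by sum, 45.97 in technical replicate 1, 54.38 in technical replicate 2, 52.15 on promoters and 43.44 to 53.08 without a library. The cause of these moves was not tested. Of 286 percentiles of 25 named genes, 236 stayed within the spread over libraries. That spread was wide for some genes, as for Mrpl52 at percentiles 99.0, 89.7 and 24.4 in libraries 1, 2 and 3. Some settings, such as the library scaling, also changed values very little. The count therefore does not show that ranks are stable.

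Between technical replicates 46 regions were called with no filter on low counts, 46 of 9743 tested with no replicate block, and 0 to 18 without a library (0 without library 2). Between libraries 0 were called with no technical replicate term and 0 to 4 without a library (0 without library 2 or library 3). No member region was called in any of these fits. Value regions held a median of 43 reads in all, which limits every ranking, and read pairs make counting intervals too narrow.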

Other observations

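Several mitochondrial ribosomal protein genes rank far apart by CPM per kb and by reads. The region over the Mrpl12 start held 97 reads in 394 bp and ranked at percentile 98.6 of all regions by CPM, yet its 45.8 CPM per kb lay below the 55.5 of a 116 bp region 3938 bp from the gene, which gave Mrpl12 its value. At the Mrpl57 start a region held 76 reads in 270 bp, at percentile 97.4 by CPM and 54.2 CPM per kb. The region before Mrpl11 held 111 reads in 278 bp, at percentile 99.3 by CPM and 78.6 CPM per kb.

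The 13 promoters with the Ikaros core GGGAA under a region include those of Mrpl24 and Mrps18c. The Mrpl24 region held 43, 16 and 18 reads and the Mrps18c region 10, 5 and 15 reads.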
